A study of Trichechus manatus latirostris with 11 samples.

Results

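Cells that divide pass a checkpoint in G1, copy their DNA in S phase and separate the copies in mitosis, and each step has its own set of genes. In G1, D and E cyclins with their kinases inactivate the retinoblastoma family, which otherwise holds the E2F transcription factors in check. The E2F targets then load and fire the MCM helicase, supply nucleotides and replicate DNA, and mitotic kinases, checkpoint proteins and motors divide the chromosomes. Most circulating leukocytes do not cycle, and a low level of such transcripts in blood is usually read as the share of cells that do.

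A module of 56 cell cycle and DNA replication genes was examined in buffy coat RNA, the white cell layer of spun blood, of adult Florida manatees (Trichechus manatus latirostris). The 56 genes were 19 genes of G1 control, 17 replication genes and 20 mitotic genes, and a gene was measured where a transcript record of the deposited table carried its symbol in the TriManLat1.0 annotation. By this rule 35 of the 56 genes had a row, each with 1 record, out of 9641 symbols and 15298 rows in all. They comprised 14 G1 control genes, 12 replication genes and 9 mitotic genes. The other 21 genes had no row matched by symbol and were not analysed here. They were CCNE1, CDK4, CDK6, E2F2 and MYC in G1 control, MCM2, MCM3, MCM10, POLA1 and POLE in replication, and AURKB, BUB1, CCNA2, CCNB2, CENPE, CENPF, FOXM1, KIF20A, MAD2L1, MKI67 and TPX2 in mitosis. Only 65.9% of the rows carried a symbol, so some of these genes may be among the rows without one. MKI67 and CCNA2, common markers of cycling cells, were thus not read.

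The study compared 4 red tide animals with 7 controls. The red tide animals came from the area of a bloom of the dinoflagellate Karenia brevis, which makes brevetoxins, and all 4 were under care for the illness at Lowry Park Zoo, some bled on arrival and others after a week of treatment. The controls were 2 animals from the Indian River Lagoon in Brevard County, 4 from Crystal River and 1 animal at the same zoo that was recovering from pneumonia. Place and care therefore go with the groups in all but 1 animal and cannot be told apart from the exposure. By the paper's dates every red tide animal was sampled before any control. Date thus goes with the groups without exception and cannot be told apart from the exposure either. Each group held 1 female. The sources differ on whether the red tide samples were frozen or kept in RNAlater.

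The values are normalized counts, that is, reads per transcript record divided by a size factor of the library, and the table gives them as 2 group means. In every row the overall mean was the average of the group means weighted 4 and 7 of 11, so one column is a mean of 4 libraries, the number of red tide samples, and the other a mean of 7, the number of controls. The columns carry no group name, and the sources differ on which of them is the red tide side, so the weights alone do not settle it and no value below is read as higher or lower in red tide animals. The groups are called the 4-library and the 7-library group below. Size factors, the measure of relative depth, ran from 0.372 to 1.56 in the 4 libraries and from 0.702 to 1.73 in the 7, with medians of 0.824 and 1.17. Where a mean was low, only 1 set of whole reads could give it, so the reads of each library could be recovered. This gave the 4 single libraries for 19 members and all 11 libraries for 3. Libraries are numbered by falling size factor within their group and were not linked to animals. Values compare the same gene between groups, never genes with each other, since they are not divided by transcript length.

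The members had no common direction. In 16 of 35 members (45.7%) the 4 libraries had the higher mean and in 19 the 7 libraries. Of all rows 56.4% had the higher mean in the 4 libraries, and 49.2% of those with an overall mean of at least 10. The median log2 ratio of the 4-library to the 7-library mean was -0.05, against 0.14 over all rows. The 4-library mean was at least 2-fold higher in 7 of 35 members (20.0%), where 23.9% of all rows were, and the 7-library mean was at least 2-fold higher in 3 (8.57%), where 10.4% of all rows were. These are counts of group means with no test, and both shares lie near those of the whole table. Among the 29 members with an overall mean of at least 10, 5 and 2 members passed 2-fold, and the shares of all such rows were 12.3% and 9.59%. After subtracting the median of all rows, MCM4 turned from 0.13 to -0.01 and AURKA dropped from 1.06 to 0.92, below 2-fold.

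**Figure D1:**
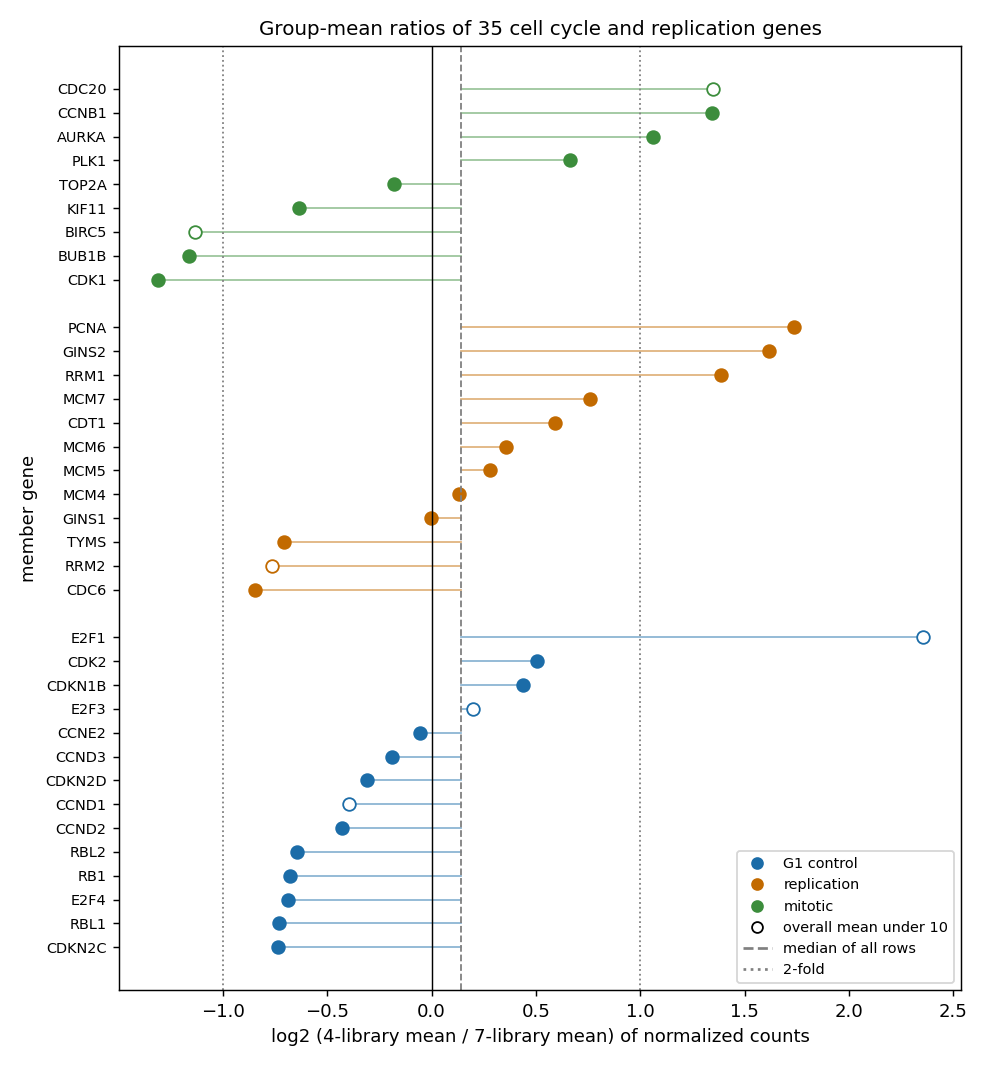
Log2 ratio of the 4-library mean to the 7-library mean for the 35 members, in 3 groups; the x axis is the log2 ratio of normalized counts, open circles have an overall mean under 10, the dashed line is the median of all rows (0.14) and dotted lines mark 2-fold. The G1 genes lie mostly left of 0 (10 of 14, against 6669 of all 15298 rows), and the replication and mitotic genes spread to both sides.

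The sum of a group of genes in bulk RNA mixes the number of cells of a type with the RNA per cell, so fewer cycling cells and less RNA per cycling cell cannot be told apart here. Marker transcripts of blood cell types also differed between the group means. Cell numbers and RNA per cell cannot be told apart in them either, and the differences were not tested. Of 9 neutrophil marker rows, 8 had a 7-library mean at least 2-fold higher. Among the 8 were CXCR2 (65.4 against 598 in the 4- and the 7-library mean) and S100A9 (835 against 5429). FPR1 went the other way (698 against 442), and the sum of the 9 rows was 2875 against 13074. All 4 platelet marker rows had a 4-library mean at least 2-fold higher, with a sum of 10483 against 3369. Medians of the log2 ratio were -0.73 for 4 T cell rows, -0.52 for 4 B cell rows, -0.13 for 6 monocyte rows and -0.33 for 5 erythroid rows. The median was -0.89 for 2 plasma cell rows, and the 1 natural killer cell row, PRF1, had 0.36. Of the plasma cell rows, JCHAIN had means of 1843 and 3495. MZB1 held 148, 130, 16.1 and 5.38 in the 4 libraries against a 7-library mean of 135, so library 1 lay above that mean. KLF1, a marker of red cell precursors, had means of 4.23 and 1.59, from 9 and 13 reads. GATA1 had 418 and 288, while ALAS2 (168 and 467), SLC4A1 (13.9 and 18.5) and EPOR (14.0 and 17.6) went the other way. GATA2, a marker of early progenitors, had 1.21 and 4.57, from 6 and 33 reads. Of the neutrophil precursor markers, CEBPE had 5.35 and 86.4, while MPO (4.44 and 2.34) and AZU1 (1.45 and 0.280) had the higher 4-library mean. The lowest means of all rows were 0.16 in the 4-library and 0.083 in the 7-library group. A marker with a row could thus not be at 0 in either. The part of the marker differences in the members' values was not tested.

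Of the G1 control genes, 10 of 14 had the lower mean in the 4 libraries, and the median log2 ratio was -0.35. The same side was found in 6669 of all 15298 rows and in 5191 of the 10225 with an overall mean of at least 10. The count of 10 was not tested. The 3 retinoblastoma family genes, which bind E2F factors and repress their targets, had close ratios. RB1 had a 4-library mean of 1289 and a 7-library mean of 2065, a log2 ratio of -0.68. RBL1 had 429 against 712 (log2 ratio -0.73) and RBL2 had 743 against 1162 (-0.65). Their means were too high to give single libraries, so the spread behind these differences is unknown here and they were not tested from library values.

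E2F4, the E2F that acts mainly as a repressor together with RBL1 and RBL2, had a ratio of like size and could be read library by library. Its 4 libraries held 39.1, 45.8, 40.3 and 26.9 normalized counts, with a mean of 38.0 ± 7.95 (SD, n = 4, 143 reads), and each lay below the 7-library mean of 61.3. CDKN2C, an inhibitor of CDK4 and CDK6, showed the same position. Its 4 libraries held 51.3, 21.4, 46.7 and 51.1 (42.6 ± 14.3, SD, n = 4) against a 7-library mean of 70.9, a log2 ratio of -0.73. Library 2 was the low one, and without it the log2 ratio was -0.51.

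The other CDK inhibitors did not share one direction. CDKN2D, of the same family as CDKN2C, had means of 254 and 315 (log2 ratio -0.31), while CDKN1B, which inhibits CDK2 complexes and is high in resting lymphocytes, had 233 and 172 (0.44). CDK2, the partner of E cyclins, held 28.9, 21.4, 22.6 and 13.5 in the 4 libraries against a 7-library mean of 15.2, so 3 of 4 libraries lay above that mean and 1 below. The cyclins with more than a few reads had small ratios. CCND2 and CCND3, the D cyclins typical of lymphoid cells, had log2 ratios of -0.43 (356 against 479) and -0.19 (132 against 151). CCNE2, an E cyclin, held 25.7, 41.9, 61.2 and 88.8 in the 4 libraries, a 7-library mean of 56.4 fell in the middle of them, and its log2 ratio of -0.05 became 0.18 without library 1 and 0.05 without library 2. CCND1, a D cyclin that leukocytes barely express, held 7.06, 15.6, 4.84 and 0 against a 7-library mean of 9.05. The 0 in library 4 allows up to 8.07 normalized counts (3 reads), and the log2 ratio of -0.40 was -1.19 without library 2 and 0.02 without library 4.

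E2F1 and E2F3, the activating E2F factors, were weak enough to be read in all 11 libraries. E2F1 held 0.641, 5.84, 3.22 and 8.07 normalized counts in the 4 libraries, from 1, 6, 2 and 3 reads. In the 7 libraries it had a lowest and a median value of 0 and a highest of 3.62, from 8 reads in all. The 4-library values were thus mostly higher, but the groups overlapped, with the 4-library value the greater in 24 of 28 pairs. The mean of log2(normalized count + 0.5) was higher by 2.02 in the 4 libraries (95% interval 0.19 to 3.84), with an unadjusted p of 0.031 in limma and an adjusted p of 0.167 after Benjamini-Hochberg adjustment over all 4463 rows with counts recovered for every library. The exact two-sided permutation test over samples gave p = 0.0485 before any adjustment, and the smallest p that this test can give is 0.00606. A pseudocount of 0.1 moved that p to 0.0545. With 1 library left out it ran from 0.0286 to 0.133, and it was over 0.05 without library 2, 3 or 4 of the 4-library group or library 1, 3, 4, 5 or 7 of the 7-library group. E2F3 held 3.85, 1.95, 1.61 and 10.8 in the 4 libraries and 0 to 9.15, with a median of 3.36, in the 7. Its groups overlapped throughout, the log2 difference was 0.34 (95% interval -1.50 to 2.18) and the adjusted p in limma was 0.904. The high library 4 set the sign: without it the log2 difference was -0.16.

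Of the rows in that fit, 344 were called higher in the 4 libraries at an adjusted p under 0.05 (7.71% of 4463) and 1 was called higher in the 7 (0.0224%). The members called were 0 of 3 in limma, while E2F1 passed an unadjusted p of 0.05 in limma, as did 1001 of the 4463 rows, and in the exact permutation test, as did 631. The rows in the fit needed a 7-library mean of at most 6 but a 4-library mean of only up to 130, so large differences could enter in 1 direction alone. With both means held to at most 6, limma called 0 of 3064 rows, with 282 rows under an unadjusted p of 0.05 and 142 in the exact permutation test. The number of calls also depended on single libraries, from 47 without library 3 of the 4-library group to 729 without library 1.

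**Figure D2:**
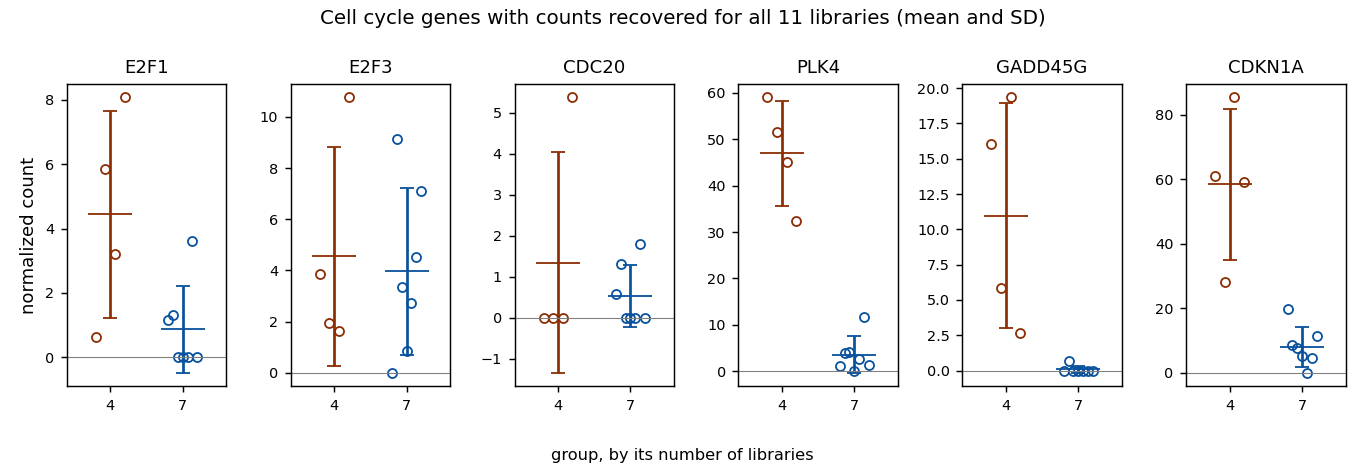
Normalized counts of 6 cell cycle genes whose counts, zeros included, could be recovered for all 11 libraries, 1 panel a gene with its own y axis; circles are single libraries of the 4-library group (left) and the 7-library group (right), and bars give the mean and SD. E2F1, E2F3 and CDC20 overlap between groups, and PLK4, GADD45G and CDKN1A, which were picked by their values, do not.

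Among the replication genes, 8 of 12 (66.7%) had the higher mean in the 4 libraries, as did 56.4% of all rows. Relative to the median of all rows it was 7 of 12. The median log2 ratio was 0.32. PCNA, the sliding clamp of the DNA polymerases, had the largest ratio of the replication members, with a 4-library mean of 1715 and a 7-library mean of 515 (3.33-fold). RRM1, the large subunit of ribonucleotide reductase, had 1348 against 516 (2.61-fold). Single libraries could not be read at these levels, and neither difference was tested.

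GINS2, a subunit of the replicative helicase complex, was the third replication member past 2-fold. It held 32.1, 31.2, 3.22 and 21.5 in the 4 libraries (22.0 ± 13.4, SD, n = 4) against a 7-library mean of 7.17. Library 3 lay below that mean and the other 3 libraries above it. For the 7 libraries, 2 sets of whole reads gave the mean. One ran from 3.62 to 18.8 and the other from 0.853 to 12.8, so the groups overlapped in both, and the exact permutation p was 0.097 for one and 0.103 for the other. GINS1, of the same complex, had close means of 115.2 and 115.4. Its 4 libraries held 116, 123, 171 and 51.1, and without the low library 4 its log2 ratio was 0.24.

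The 4 MCM members with a row, subunits of the ring at the core of the helicase, all had log2 ratios above 0, from 0.13 to 0.76, of which that of MCM4 was -0.01 relative to the median of all rows. MCM7 had means of 841 and 496 (log2 ratio 0.76), MCM6 had 1958 and 1528 (0.36) and MCM4 had 305 and 279 (0.13). MCM5 could be read by library and held 32.7, 16.5, 21.0 and 18.8, with 3 of 4 values above the 7-library mean of 18.4 and 1 below. The helicase loaders went to opposite sides. CDC6 held 48.1, 43.8, 70.9 and 64.6 in the 4 libraries (56.9 ± 13.0, SD, n = 4), each below the 7-library mean of 102. CDT1, which acts with CDC6, held 10.3, 10.7 and 11.3 in the first 3 libraries and 35.0 in library 4 against a 7-library mean of 11.1. Its log2 ratio of 0.59 rested on that library and was -0.05 without it.

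Nucleotide supply genes divided in the same way. TYMS, the enzyme that makes thymidylate, held 71.2, 60.4, 58.0 and 29.6 in the 4 libraries (54.8 ± 17.8, SD, n = 4), each below the 7-library mean of 89.5. RRM2, the small and cell cycle regulated subunit that pairs with RRM1, held 13.5, 1.95, 4.84 and 0 against a 7-library mean of 8.61. The ratio of RRM2 was thus on the other side from that of RRM1, but it came from 26 reads, only library 1 lay above the 7-library mean, and without that library the log2 ratio went from -0.77 to -1.93. In each of the 3 sets of reads that could give the 7-library mean of RRM2, the groups overlapped, with exact permutation p from 0.194 to 0.588.

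**Figure D3:**
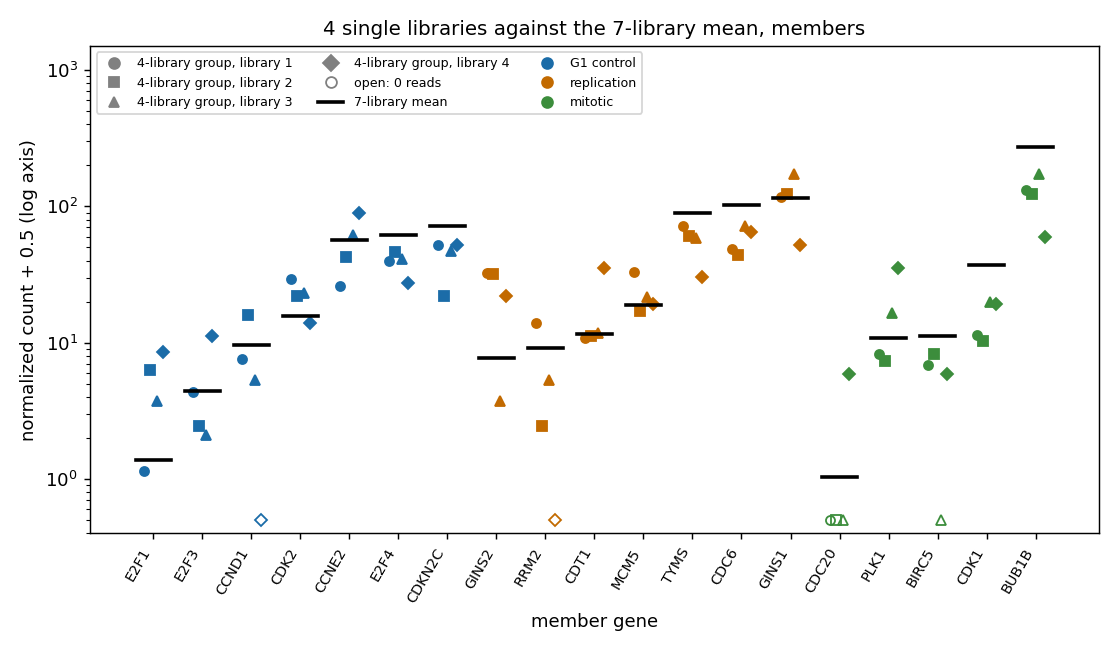
Normalized counts (plus 0.5, log axis) of the 19 members with recovered reads; symbols are the 4 single libraries, open symbols libraries with 0 reads, and black bars the 7-library mean. The bar stands above all 4 symbols in 7 members (CDKN2C, E2F4, TYMS, CDC6, CDK1, BUB1B and BIRC5) and below all 4 in none.

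The mitotic genes were split, with 4 of 9 higher in the 4-library mean and 5 in the 7-library mean, and 3 past 2-fold on each side. CDK1 and CCNB1, the kinase and the cyclin that together start mitosis, were on opposite sides. CDK1 held 10.9, 9.74, 19.3 and 18.8 in the 4 libraries (14.7 ± 5.09, SD, n = 4, 46 reads), all below the 7-library mean of 36.5, a 2.48-fold difference. CCNB1 had a 4-library mean of 114 and a 7-library mean of 45.0, 2.54-fold the other way. For CCNB1, 2 sets of reads gave the 4-library mean. The first held 28.2, 125, 305 and 0 and the second 80.2, 110, 95.1 and 172. The 7-library mean lay below all 4 libraries in the second set and below only 2 of them in the first, so the spread of CCNB1 remained undecided.

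BUB1B of the spindle checkpoint and BIRC5 of the chromosomal passenger complex had the lower mean in the 4 libraries. BUB1B, the checkpoint kinase BubR1, held 131, 124, 172 and 59.2 (122 ± 46.8, SD, n = 4), all below the 7-library mean of 272, and without library 4 its log2 ratio of -1.16 became -0.93. BIRC5, survivin, held 6.41, 7.79, 0 and 5.38 against a 7-library mean of 10.7, from 20 reads. Library 3 gave the 0, which allows up to 4.84 normalized counts, and without it the log2 ratio of -1.13 was -0.72. The spindle motor KIF11 had means of 178 and 277 (log2 ratio -0.63), and TOP2A, which untangles sister chromatids, had 280 and 317 (-0.18).

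The mitotic kinases AURKA and PLK1 and the anaphase activator CDC20 had the higher mean in the 4 libraries. AURKA had means of 211 and 101 (log2 ratio 1.06) and could not be read by library. PLK1 held 7.70, 6.81, 16.1 and 35.0 against a 7-library mean of 10.4, with 2 values on each side, and its log2 ratio of 0.66 was -0.02 without library 4. CDC20 had 2 reads in library 4 of the 4-library group and none in the other 3, and 5 reads in the 7 libraries. Its 2.55-fold ratio has a 95% Poisson interval of 0.309 to 9.20 for counting error in those 2 reads, and the log2 difference in limma was 0.15 (95% interval -1.68 to 1.98, adjusted p = 0.957).

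Over the 19 members with single libraries, the 7-library mean lay above each of the 4 libraries in 7 (36.8%) and below each of them in 0, where the shares of all 10284 such rows were 17.8% and 10.8%. At an overall mean of at least 10 the count was 6 of 13 members above (46.2%) and 0 below, against 27.0% and 13.6% of 5211 rows. The spread of the 7 libraries is unknown for these 7 members, so a position outside the range of the 4 libraries is no test of the groups. They came from all 3 steps: CDKN2C and E2F4 in G1 control, TYMS and CDC6 in replication, and CDK1, BUB1B and BIRC5 in mitosis. The need for single libraries also shaped these counts. Of the members at least 2-fold higher in the 4-library mean, PCNA, RRM1, AURKA and CCNB1 could not be counted, and E2F1, GINS2 and CDC20 could. Those at least 2-fold higher in the 7-library mean, CDK1, BUB1B and BIRC5, were all counted.

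The highest and lowest values were spread over the libraries. Of the 4 libraries, library 1 was the highest in 6 members and the lowest in 4, library 2 in 3 and 5, library 3 in 4 and 3, and library 4 in 6 and 7. CDC20, at 0 in libraries 1, 2 and 3, was counted as lowest in library 1. Libraries 1 to 4 were highest in 31.6%, 15.8%, 21.1% and 31.6% of these members. Over all 10284 such rows they were highest in 18.5%, 16.4%, 30.8% and 34.3%, and lowest in 35.0%, 25.5%, 19.4% and 20.1%. Library 4 had the smallest size factor, 0.372, so 1 read in it weighs most, and without it the sign of the log2 ratio changed in CCND1, E2F3, GINS1, CDT1 and PLK1, and CDC20 had no read left in the group. The coefficient of variation over the 4 libraries ran from 20.9% in E2F4 to 200% in CDC20, with a median of 49.9%.

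The wider cell cycle was also mixed. Of 167 other genes of the cycle, 109 had a row (117 rows), the median log2 ratio was -0.04, and the 4-library mean was at least 2-fold higher in 24 rows (20.5%) and the 7-library mean in 15 (12.8%), again near the shares of all rows. Medians were 0.05 for kinases, inhibitors and regulators, -0.20 for other replication genes, -0.12 for other mitotic genes and 0.30 for cohesin and damage checkpoint genes. The 3 largest ratios toward the 4 libraries at an overall mean of at least 10 were those of PLK4, CDKN1A and ORC6. The 3 largest toward the 7 libraries were TFDP2, the partner of the E2F factors (33.8 against 141), NUF2, a kinetochore protein (65.9 against 241), and KIF14, a cytokinesis motor (101 against 258).

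PLK4, the kinase that starts centriole duplication, held 59.0, 51.6, 45.1 and 32.3 in the 4 libraries and between 0 and 11.8, with a median of 2.71, in the 7. The groups did not overlap, and the log2 difference was 4.06 (95% interval 2.24 to 5.88) with an adjusted p of 0.00281 in limma. The exact permutation p was 0.00606, the smallest it can give. PLK4 was picked for its large ratio in these same values, so the gap and both p-values are not independent of that choice. CDKN1A, an inhibitor of cyclin-dependent kinases that p53 induces, held 60.9, 28.2, 85.4 and 59.2 in the 4 libraries. In the 7 libraries its values were 19.6, 8.50, 7.55, 5.12, 0, 4.53 and 11.4, again below each of the 4. Its 7-library mean of 8.10 was above the limit of 6, so CDKN1A was not in the fit. Such a gap, with the lowest of the 4 libraries above the highest of the 7, was found in 2.78% of the 4825 rows where all 11 could be read. ORC6, of the origin recognition complex, had means of 100.4 and 15.5 and could not be read by library.

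The fit held 19 rows of the other cell cycle lists, of which 2 were called, both higher in the 4 libraries, the direction in which 7.71% of all rows of the fit were called and the only one in which its limits let large differences in. The smallest adjusted p among the other rows was 0.310. The second call was GADD45G, a stress-induced growth arrest gene, with 16.0, 5.84, 19.3 and 2.69 normalized counts in the 4 libraries and 1 read in all 7 together. Its 118-fold ratio has a 95% Poisson interval of 21.1 to 4644 for counting error in that read, and the adjusted p in limma was 0.00251. No row had a 7-library mean of 0, so a row needed at least 1 read there, and the interval does not allow for this. GADD45G was named because it was called, so its ratio and p are not independent of that choice. With a pseudocount of 0.1 the adjusted p of PLK4 was 0.0505 and that of GADD45G 0.0082.

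**Figure D4:**
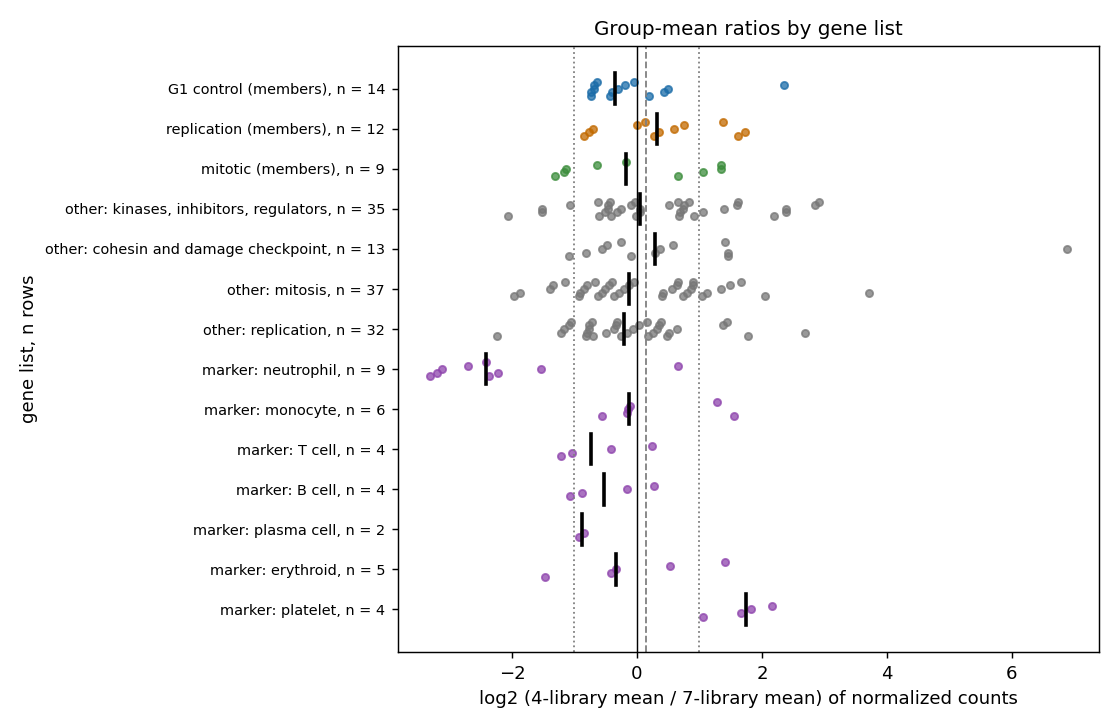
Log2 ratio of the 4-library mean to the 7-library mean for the rows of each gene list; points are rows, black bars list medians, the dashed line the median of all rows and dotted lines 2-fold. The member and other cell cycle lists straddle 0 with medians from -0.35 to 0.32, while the neutrophil rows lie at a median of -2.41 and the platelet rows at 1.74.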

How the data were processed

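RNA from buffy coats of 4 manatees in the red tide group and 7 in the control group was depleted of rRNA and globin and sequenced in paired ends. The authors trimmed reads with Cutadapt, mapped them to TriManLat1.0 with Bowtie2, discarded duplicates and reads that mapped to several places, and counted the rest for each gene sequence; which program and annotation release served for counting was not given in the sources used here. Per the authors' deposited table, each group mean is a signal, the average over libraries of counts scaled with size factors from DESeq. The authors' columns of fold change, its log2, p-value and adjusted p-value were not used. Unused columns of single samples numbered 0. No reference sequence was used here, so no promoter was searched.

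Records were matched to symbols without their version number. Whole reads per library were searched for 4-library means of up to 130 and 7-library means of up to 9.5, and a result was accepted where no second combination gave the printed mean; this was tested on simulated data. Recovery succeeded for 95.6% of 4-library means in that range, for 99.4% of 7-library means of up to 6 and for 43.7% of those from 6 to 9.5. Rows whose 7-library mean did not exceed 6 entered limma 3.58.1 in R 4.3.3 on log2(normalized count + 0.5), two-sided, with Benjamini-Hochberg adjustment over 4463 rows. The pseudocount makes fold changes of low genes smaller. Exact permutation tests used all 330 splits. Other genes were compared by group means without a test. Intervals from reads cover counting error only, and total reads per library are unknown. The samples are separate animals by their labels, and libraries could not be linked to animals, sampling place or storage.

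The members and lists were chosen with earlier results of these data known. All members with a row were named; of the other cell cycle lists, the 3 largest ratios in each direction at an overall mean of at least 10, and GADD45G, named after its values were seen because the test called it. Alternatives concerned the pseudocount, low reads, the limits on the means, centring, the fold threshold and each library left out.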

Additional observations from a re-analysis of the deposited data

Results flagged for a closer look

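In 22 sets of single-library values of the members, 4 had a library far from the others by Dixon's criterion. For normally distributed values chance gives about 1 in 20. That rate need not hold for a few whole reads, as in CDC20 and E2F1, so no excess over chance is shown. Within the 4-library group, CDKN2C was low in library 2 (21.4, next value 46.7), CDT1 was high in library 4 (35.0, next value 11.3) and CDC20 had its only reads in library 4 (5.38, next value 0). Within the 7-library group, E2F1 was high in library 6 (3.62, next value 1.31), which stands for 4 reads. Libraries 2 and 4 of the 4-library group were not linked to an animal, and the source of these values was not tested.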

How the results depend on the processing

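No paired analysis was possible because the columns carry no replicate numbers and libraries were not linked to samples. Rows called in limma, 345 in the report, were 215 with a pseudocount of 0.1, 0 with both means at most 6 (282 at an unadjusted p under 0.05), 0 after adjustment of the exact permutation p-values (631 at an unadjusted p under 0.05), whose smallest value is 0.00606, and 47 to 729 with 1 library left out. The lower counts came without library 3 (47) and library 4 (67) of the 4-library group. Members called stayed at 0 under every limma alternative, with adjusted p of E2F1 from 0.0516 to 0.508. All 3 members were in each fit, except that a minimum of 10 reads over all libraries left out CDC20. Other cell cycle rows called were 1 instead of 2 with a pseudocount of 0.1, and 0 with both means at most 6, where PLK4 and GADD45G are left out by their 4-library means. The exact permutation p of E2F1 was 0.0545 with a pseudocount of 0.1 and 0.0286 to 0.133 with 1 library left out, that of CDC20 0.583 to 1 and that of E2F3 0.524 to 0.952. With 1 library left out, the log2 difference ran from -0.74 to 0.45 for CDC20 and from -0.16 to 0.65 for E2F3. The log2 difference of CDC20 reversed to -0.10 with a pseudocount of 0.1 and to -0.74 without library 4 of the 4-library group; that of E2F3 reversed to -0.16 without the same library and to -0.10 without library 1 of the 7-library group. Members with a higher 4-library mean by fold threshold were 10 at 1.5-fold, 7 at 2-fold and 3 at 3-fold. For the 7-library mean they were 12, 3 and 0. The shares of all rows at 1.5-fold and 3-fold were not computed. At 2-fold with 1 of the 4 libraries left out, the counts were 6 to 7 and 2 to 4. Leaving a library out could change only the 19 members with recovered reads. With 1 of the 4 libraries left out, an alternative chosen after seeing the data, the 7-library mean lay above the remaining 3 in 7 to 9 members and below them in 1 to 2, instead of 0. The cause of these changes was not tested. Depth limits the weak members most: 3 reads stand for 1.92 to 8.07 normalized counts in the 4 libraries.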
